A study of Mus musculus with 4 samples.

Results

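The cells described here were the myelinating Schwann cells caught by single cell RNA-seq of mouse dorsal root ganglia (DRG), the clusters of sensory neuron cell bodies beside the spinal cord. They were chosen by a marker gate on unique molecular identifiers (UMIs), each of which stands for 1 captured RNA molecule. A barcode, which stands for 1 cell, was kept with 600 to 15000 UMIs, 500 to 4000 detected genes and less than 10% mitochondrial UMIs. It entered the gate with at least 4 UMIs summed over *Ncmap*, *Prx* and *Mag*, no UMI of the neuronal gene *Isl1* and at most 4 UMIs of the macrophage genes *C1qa*, *C1qb* and *C1qc* together. The gate held 234 of the 6095 cells that passed the filters (3.84%). The cells came from 4 libraries of C57BL/6 female mice aged 8 to 12 weeks, of which 2 held uninjured ganglia (control) and the other 2 held ganglia taken 3 days after the sciatic nerve had been crushed at mid-thigh (injury). The labels name L4 ganglia, whereas the methods name L4 and L5. The labels name no allele or agent in any group. Cells of several mice were pooled, so that no value belongs to a single animal. Ganglia were dissociated with enzymes and live cells were sorted before capture, and the nerve at the crush site was not sampled. The libraries titled without a number are called replicate 1 here.

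Myelinating Schwann cells wrap the larger peripheral axons in a compacted spiral of membrane, held together by proteins such as myelin basic protein (*Mbp*) and the tetraspan protein PMP22. Channels of cytoplasm, gap junctions and scaffolds run through the non-compact parts of the sheath, and specialised loops and microvilli meet the axon at the nodes of Ranvier. The transcription factors *Sox10*, *Pou3f1* (Oct6) and *Egr2* (Krox20) drive this programme, and after nerve injury Schwann cells beyond the lesion are known to leave it and to take up a repair state led by *Jun*. A DRG holds such cells around the axon stems inside the ganglion, next to the satellite glial cells (SGC) that wrap the neuronal cell bodies.

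The 3 gate genes encode myelin proteins. *Ncmap*, on the minus strand at chr4:135369576-135398227 of GRCm38, encodes a protein of non-compact myelin. *Prx* (periaxin, chr7:27499324-27520214, plus strand) links the outer sheath to the dystroglycan complex, and *Mag* (myelin-associated glycoprotein, chr7:30899176-30914873, minus strand) faces the axon. The 250 bases before the RefSeq start of each (GRCm38.p6) are shown, since these genes chose the cells, with those of the connexin gene *Gjb1* for a gene that the rule did not use. All are written 5′ to 3′ on the strand of the gene, and capitals mark matches to ACAAAG or CTTTGT (the core bound by SOX factors, on either strand) or to GCGNGGGNG or CNCCCNCGC (the core bound by EGR factors, on either strand).
*Ncmap* (chr4:135398228-135398477, minus strand): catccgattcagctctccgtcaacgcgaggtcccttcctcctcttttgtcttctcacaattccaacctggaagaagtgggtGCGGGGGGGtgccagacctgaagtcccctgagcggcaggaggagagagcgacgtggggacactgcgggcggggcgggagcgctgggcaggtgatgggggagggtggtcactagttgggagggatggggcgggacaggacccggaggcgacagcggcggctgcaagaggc
*Prx* (chr7:27499074-27499323, plus strand): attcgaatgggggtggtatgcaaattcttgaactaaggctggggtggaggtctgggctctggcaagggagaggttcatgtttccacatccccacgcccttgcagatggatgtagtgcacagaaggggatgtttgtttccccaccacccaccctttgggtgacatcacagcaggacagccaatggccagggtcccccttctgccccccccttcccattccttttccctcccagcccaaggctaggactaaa
*Mag* (chr7:30914864-30915113, minus strand): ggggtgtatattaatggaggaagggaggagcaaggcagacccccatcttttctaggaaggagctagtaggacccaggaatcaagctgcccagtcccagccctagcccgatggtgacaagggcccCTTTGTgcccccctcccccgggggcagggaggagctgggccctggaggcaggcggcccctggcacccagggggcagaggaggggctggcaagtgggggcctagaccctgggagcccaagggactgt
*Gjb1* (chrX:101376126-101376375, plus strand): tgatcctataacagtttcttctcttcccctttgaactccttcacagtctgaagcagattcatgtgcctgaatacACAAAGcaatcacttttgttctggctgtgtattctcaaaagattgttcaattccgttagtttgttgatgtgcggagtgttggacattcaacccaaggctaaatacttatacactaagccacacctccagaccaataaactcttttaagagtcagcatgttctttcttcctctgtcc

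The promoter of *Ncmap* held 1 match to the EGR core, those of *Mag* and *Gjb1* held 1 match each to the SOX core, and that of *Prx* held none of these letters. Among 32851 promoters of the same length, 16.5% held the SOX core and 10.5% the EGR core, so either match is common. Of the genes that were at least 4-fold higher in the gated cells than in satellite glial cells (described further on), 124 of 188 had a promoter in the table, and 18.5% of these genes held the SOX core and 27.4% the EGR core in at least 1 promoter. The shares were 18.9% and 23.8% for the genes at least 4-fold lower (122 of 191) and 14.5% and 21.0% over 2677 of the 3563 genes tested. A match describes the letters and not a bound site.

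The gate sat in the tail of a steep distribution. No UMI of the 3 genes was found in 5509 of the 6095 cells, 255 cells held 1 UMI, 53 held 2, 36 held 3 and 33 held 4. Of 242 cells with a sum of 4 or more, 6 were dropped for C1q transcripts and 2 for *Isl1*. The median gated cell held 8 UMIs of the 3 genes and the highest 43. *Ncmap* was found in 229 of the 234 cells (97.9%), *Prx* in 193 (82.5%), *Mag* in 159 (67.9%), and all 3 genes in 125. Since these genes chose the cells, their levels are a description. In CPM (the UMIs of a gene scaled to a fixed total of all UMIs of the cells summed), *Ncmap* stood at 2314 and 1775 in control 1 and 2 and at 2874 and 1607 in injury 1 and 2. *Prx* stood at 1323, 605, 672 and 675 CPM and *Mag* at 483, 285, 507 and 257 CPM in the same order.

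The label was checked on genes that the rule did not use. *Mbp* and *Pmp22* together made up a median of 4.24% of the UMIs of a gated cell, against 0.130% in satellite glial cells and 0.0154% in macrophages. Cells just inside the gate, with a sum of 4, had a median of 2.45% (31 cells) and those just outside, with 3, had 2.30% (29 cells). The median was 0.932% at a sum of 2 (45 cells), 0.152% at 1 and 0.0486% at 0. The cells at a sum of 4 differed between libraries, with a median of 2.45% (1.61 to 4.34%) in 11 cells of control 1, 0.973% (0.490 to 1.96%) in 7 of control 2 and 2.91% (0.992 to 5.64%) in 13 of injury 1, and injury 2 had none. Over the whole gate the share ran from 0.490 to 10.3%. Its lower quartile was 2.56%, 1.92%, 3.46% and 2.73% in control 1, control 2, injury 1 and injury 2. Low shares were not confined to a sum of 4, since the lowest cell of injury 2 had 0.813%. *Pmp2*, the marker named for these cells along with the gate genes, was found in 52 gated cells (22.2%).

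**Figure D1:**
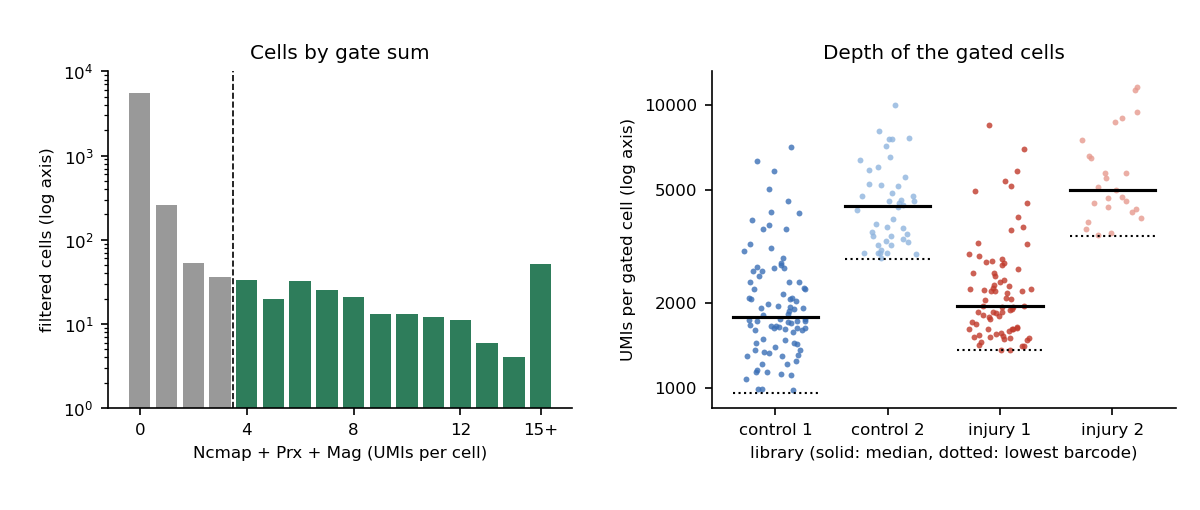
Left, number of filtered cells (log axis) against the summed UMIs of *Ncmap*, *Prx* and *Mag* per cell, with a dashed line at the gate of 4. Right, UMIs per gated cell (log axis) in the 4 libraries, with a solid line at the median (1784, 4415, 1957 and 5012 UMIs) and a dotted line at the lowest barcode of the library. The lowest gated cell had 2878 UMIs in control 2 and 3476 in injury 2, above the medians of control 1 and injury 1.

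The libraries numbered 2 stood apart from the others. The lowest UMI count of any deposited barcode was 966 in control 1 and 1368 in injury 1, but 2862 in control 2 and 3466 in injury 2, so the latter contain no shallow cells. The gated cells had a median of 1784 UMIs in control 1, 4415 in control 2, 1957 in injury 1 and 5012 in injury 2, and a median of 974.5, 1709, 1003 and 1919 detected genes. Their summed UMIs were 192736, 206751, 187537 and 148071, from libraries that totalled 5585909, 11210875, 11163177 and 9477167 UMIs. The summed *Fabp7*, *Apoe* and *Dcn* levels were also higher in control 2 and injury 2, and for the first pair of genes a few cells carried the difference. *Fabp7*, the satellite glial marker, stood at 26, 996, 85.3 and 1810 CPM in control 1, control 2, injury 1 and injury 2, and 3 cells of control 2 and 4 of injury 2 with at least 10 *Fabp7* UMIs held 191 of 206 and 263 of 268 of its UMIs. Without these 7 cells control 2 stood at 79.5 CPM and injury 2 at 43.2 CPM. *Apoe* stood at 612, 6539, 805 and 10954 CPM, and at 955 and 1185 CPM in control 2 and injury 2 without the same cells. The fibroblast gene *Dcn* stood at 125, 914, 37.3 and 2364 CPM, of which these cells held 2 UMIs in control 2 and none in injury 2. Some C1q UMI was found in 34 gated cells (17, 5, 3 and 9 in the same order). The doublet caller Scrublet marked 42 of 6975 barcodes (0.602%), among them 2 gated cells, both in injury 1. The libraries shared 20 cell barcodes over all pairs, and none of these was gated.

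The gate held 88 of 1301 cells in control 1 (6.76%, exact binomial 95% interval 5.46 to 8.27), 44 of 1341 in control 2 (3.28%, 2.39 to 4.38), 77 of 2377 in injury 1 (3.24%, 2.56 to 4.03) and 25 of 1076 in injury 2 (2.32%, 1.51 to 3.41). These intervals cover counting error only. The mean share was 5.02% ± 2.46 (SD, n = 2) in control and 2.78% ± 0.648 (SD, n = 2) in injury, a difference of -2.24 percentage points that the 2 against 2 design cannot separate from the spread (p = 0.333 by a two-sided exact permutation test, which can give no smaller value). Within the libraries numbered 1 it was -3.52 points, and within those numbered 2 it was -0.958 points. Among cells of at least 3500 UMIs, a limit chosen after the depths were seen, the gate held 11 of 473, 30 of 908, 10 of 1022 and 24 of 1057 cells (2.33%, 3.30%, 0.978% and 2.27%). Control 2 then had the highest share in place of control 1, and the difference was -1.19 points (p = 0.333 by the same exact test). The order of the libraries thus changed with the depth limit.

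*Pmp22* and *Mbp* were among the most abundant transcripts of the gated cells. By mean CPM over the 4 libraries, the nuclear RNA *Malat1* led with 47079 ± 7132 (SD, n = 4), *Pmp22* stood at 25480 ± 2248 and *Mbp* at 21697 ± 707 (SD, n = 4). Lower in the order stood the ferritin gene *Fth1* (20164 ± 1250), the mitochondrial *mt-Atp6* (11727 ± 516), the tetraspanin gene *Cd9* (9218 ± 1287), *mt-Co3* (8513 ± 842), the small heat shock protein gene *Cryab* (7369 ± 895) and *mt-Cytb* (6784 ± 403). *Cd9* and *mt-Co3*, and likewise *Cryab* and *mt-Cytb*, lay within their spread of each other. UMIs count molecules, so these values are not divided by gene length. As a share of the summed UMIs, *Mbp* and *Pmp22* made up 4.44%, 4.69%, 4.97% and 4.77% in control 1, control 2, injury 1 and injury 2 (4.72% ± 0.217, SD, n = 4), against 0.137% ± 0.00494 in satellite glial cells.

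To ask what set these cells apart from the neighbouring glia, they were compared with 1228 cells of a satellite glial gate (at least 10 *Fabp7* UMIs, at most 1 UMI of the 3 Schwann genes, no *Isl1* UMI and at most 4 C1q UMIs). UMIs were summed per library and gate and tested with edgeR, with the library as a block. The gate genes of either side were not tested, and genes that vary along with them are part of how the cells were chosen. Here and below, higher or lower means an adjusted p under 0.05 over all genes tested. Of 3563 genes, 759 (21.3%) were higher in myelinating Schwann cells and 685 (19.2%) lower, and 188 (5.28%) and 191 (5.36%) of these by at least 4-fold. After each cell was thinned to 1000 UMIs, 311 were higher and 306 lower. The median log2 fold over all genes was 0.00.

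Compact myelin genes were the most distinct. *Mbp* stood at 22030, 21649, 22374 and 20733 CPM in control 1, control 2, injury 1 and injury 2, and at 946, 805, 907 and 868 CPM in satellite glial cells, a log2 fold of 4.65 ± 0.14 (SE, n = 4 libraries, edgeR adjusted p = 8.1e-10). *Pmp22* (chr11:63128982-63159547, plus strand) stood at 22404, 25214, 27296 and 27007 CPM (5.72 ± 0.15). In neither of these did the gates overlap, and the share of all tested genes without overlap is not given here. *Cldn19*, the claudin of Schwann cell tight junctions (chr4:119255414-119262438), stood at 825, 648, 1146 and 574 CPM against at most 3.89 CPM in satellite glial cells (7.78 ± 0.23). *Mal*, a protein of membrane rafts, was higher by 2.34 ± 0.12 and the complement inhibitor *Cd59a* by 0.79 ± 0.13. Of the 7 tested genes of the compact myelin list given here, 6 were higher (beside 21.3% of all tested genes), with a median log2 fold of 4.65. The lower member was *Mpzl1*, an adhesion protein of many cell types, at -0.89 ± 0.21.

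*Pmp2*, a fatty acid binding protein of peripheral myelin (chr3:10179851-10183929, minus strand), was nearly absent from satellite glial cells. It gave 290 UMIs in myelinating Schwann cells and 1 in satellite glial cells, a ratio of CPM with a counting interval of 398 to 88667. Its level was uneven between libraries, at 57.1, 672, 267 and 608 CPM in control 1, control 2, injury 1 and injury 2. After each cell was thinned to 1000 UMIs, 4.82%, 23.6%, 11% and 23.2% of gated cells kept a *Pmp2* UMI (12.2% of 231 cells; 3 shallower cells of control 1 were left out), against 0.0122% of satellite glial cells and 0.0601% of macrophages, and unthinned shares were 7.95%, 50.0%, 18.2% and 36.0%. The libraries numbered 2 were the highest within each condition by both counts. Among gated cells of at least 3000 UMIs the order in injury was the opposite, with a *Pmp2* UMI in 66.7% of 12 cells of injury 1 and 36% of 25 cells of injury 2, against 21.4% of 14 cells of control 1 and 47.6% of 42 cells of control 2. Of the other lipid binding genes, *Fabp5* was lower than in satellite glial cells by -1.15 ± 0.19 on the log2 scale (233, 189, 208 and 155 CPM) and *Dbi*, an acyl-CoA binding protein, by -2.65 ± 0.16 (2049, 2423, 2911 and 4147 CPM). *Fabp4* was listed at 0 UMIs and *Fabp3* gave 2 UMIs.

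**Figure D2:**
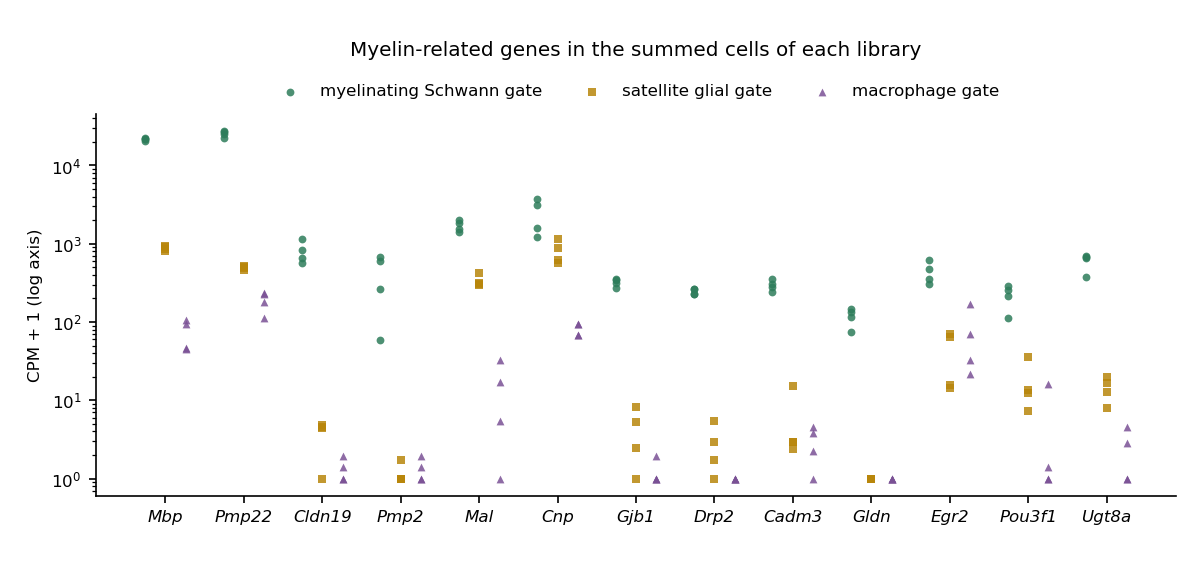
CPM + 1 (log axis) of 13 myelin and Schwann genes in the 4 libraries, in myelinating Schwann cells (circles), satellite glial cells (squares) and macrophages (triangles). *Mbp* and *Pmp22* lie at 20733 CPM or more in every library of the Schwann gate, and *Pmp2* is the most spread between libraries.

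Of the non-compact myelin list, 20 of 32 genes were tested. Of these, 14 were higher than in satellite glial cells and none lower, with a median log2 fold of 1.5. Over all tested genes 21.3% were higher and 19.2% lower. The adhesion gene *Cadm3* stood at 280, 353, 304 and 243 CPM (7.05 ± 0.31). *Nfasc*, whose product holds the node and paranode, had the same log2 fold of 7.05 with a wider error (0.61) at 48.4 to 90.7 CPM. *Drp2*, the dystrophin-related partner of periaxin (chrX:134404551-134456573), stood at 265, 266, 224 and 230 CPM (6.59 ± 0.31). *Gjb1*, the connexin 32 gene mutated in X-linked neuropathy (chrX:101376378-101385629), stood at 311, 348, 357 and 270 CPM (6.29 ± 0.32). *Fa2h*, which makes the hydroxylated fatty acids of myelin lipids, was higher by 6.37 ± 0.28. In these 5 genes all 4 libraries of the Schwann gate lay above all 4 of the satellite glial gate. The share of all tested genes in which the gates did not overlap is not given here, so this is a description.

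Smaller differences were found for genes that satellite glial cells also expressed. *Mpp6*, a scaffold of the sheath, was higher by 3.70 and the ankyrin gene *Ank3* by 2.77 on the log2 scale. *Cnp*, a phosphodiesterase of the cytoplasmic channels, stood at 3705, 1214, 3103 and 1587 CPM (1.52 ± 0.14), the libraries numbered 2 being the lower ones. *Ndrg1*, the gene of a hereditary demyelinating neuropathy, had a log2 fold of 1.52 ± 0.14 as well. *Utrn* (1.69), *Plekha4* (1.48), *Cadm4* (1.35), *Plekhb1* (1.13) and the dystroglycan gene *Dag1* (1.02) made up the rest. *Gjc3*, *Cdh1*, *Sgcb*, *Sgce*, *Emp2* and *Arhgef10* were not called, and the central myelin genes *Mog* and *Opalin*, with *Marveld3*, were listed at 0 UMIs in both gates.

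At the node, *Gldn* was the clearest. It encodes gliomedin, which gathers axonal sodium channels at the node (chr9:54286486-54341786), and stood at 114, 145, 133 and 74.3 CPM against 0 UMIs in all satellite glial libraries, at least 226-fold higher when a floor of 3 UMIs over the group is used. *Fxyd3*, a sodium pump regulator, was higher by 3.74, the potassium channel gene *Kcna1* by 2.50 and *Msn*, which anchors actin in microvilli, by 0.83. The microvillar scaffold gene *Slc9a3r1* (-2.68), *Fxyd1* (-1.18) and *Ezr* (-0.56) were lower, so the 9 tested genes of the list divided into 4 higher, 3 lower and 2 not called, with a median of 0.12. Among 13 tested genes of the basal lamina and its receptors, *Itga6* (2.16), *Col4a2* (1.57), *Hspg2* (1.22) and *Itgb1* (0.47) were higher and *Gpr126* (-2.12), *Itga7* (-1.52) and *Col28a1* (-1.28) were lower. The median of the list was -0.10. Over all tested genes 21.3% were higher and 19.2% lower, so the counts of the node and basal lamina lists are a description of single genes. *Gpr126*, a receptor required for the onset of peripheral myelination, gave 11 UMIs in all gated cells.

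Of the 12 tested regulators of myelination, 2 were higher and 4 lower, with a median log2 fold of -0.02. Over all tested genes 21.3% were higher and 19.2% lower, so the counts say little about the list as a whole. *Egr2* stood at 623, 310, 469 and 351 CPM in the Schwann gate and at 70.1, 14.6, 63.1 and 13.4 CPM in satellite glial cells (3.72 ± 0.28). *Pou3f1* stood at 254, 290, 112 and 216 CPM (4.19 ± 0.25). *Sox10*, expressed by all glia of the ganglion, was not called (-0.14 ± 0.22, adjusted p = 0.65), at 301, 111, 229 and 209 CPM. Lower were *Zfp191* (-1.36), *Pou3f2* (-1.03), the neuregulin receptor *Erbb3* (-0.95) and *Zeb2* (-0.69).

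Of the lipid synthesis genes, most cholesterol genes were lower and the fatty acid and sphingolipid list held genes of both directions. Of 21 tested genes of the cholesterol list given here, 17 were lower than in satellite glial cells, with a median log2 fold of -0.94. Over all tested genes 19.2% were lower and 21.3% higher. *Hmgcs1*, which opens the pathway, stood at 934, 701, 629 and 797 CPM against 1128, 1390, 789 and 1417 CPM in satellite glial cells (-0.59 ± 0.14). Larger differences were found for *Lss* (-2.84), *Tm7sf2* (-2.56), *Nsdhl* (-2.0), *Dhcr7* (-1.96), *Mvk* (-1.89) and *Acat2* (-1.84), which were low in the Schwann gate. Of the 19 tested genes of fatty acid and sphingolipid metabolism, 7 were higher and 9 lower. Among the higher ones *Ugt8a*, which makes galactosylceramide, stood at 664, 692, 373 and 675 CPM against 7.01 to 19.1 CPM (5.28 ± 0.18), with *Elovl7* (4.02), *Sptlc2* (2.19), *Elovl1* (1.74), the very long-chain ceramide synthase gene *Cers2* (1.65), *Gal3st1* (1.26) and *Elovl6* (0.83). The lower ones were the desaturase gene *Fads2* at -3.40, the elongase gene *Elovl5* at -2.89, *Scd1* at -2.39, the aspartoacylase gene *Aspa* at -1.54, *Fads1* at -1.23, *Acly* at -1.16, *Me1* at -1.02, *Fasn* at -1.0 and *Scd2* at -0.79.

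**Figure D3:**
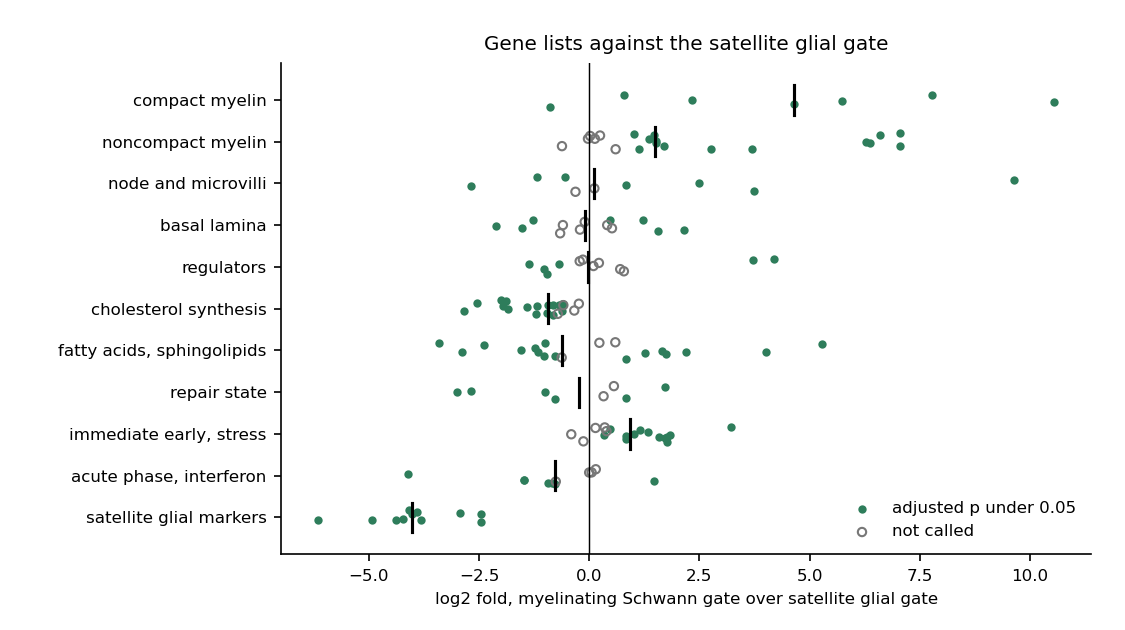
Log2 fold change, myelinating Schwann over satellite glial cells, of the tested members of each gene list, with filled points for an adjusted p under 0.05, open points for genes not called and a line at the list median. The compact myelin median is at 4.65 and the cholesterol median at -0.94, beside 0.00 for all tested genes.

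Outside the lists, the largest folds belonged to genes with few or no UMIs in satellite glial cells. *Slc36a2*, a proton-coupled amino acid transporter, stood at 353, 411, 336 and 446 CPM against 1 satellite glial UMI (counting interval of the ratio 387 to 86229). *Fam178b* stood at 1385, 1557, 1253 and 1520 CPM (7.33 ± 0.20) and the sodium pump regulator *Fxyd6* at 2153, 972, 1626 and 824 CPM (7.22 ± 0.32). *Them5*, an acyl-CoA thioesterase, and *Ddn* gave no UMI in satellite glial cells and were at least 239-fold and at least 144-fold higher. The septin gene *Sept3* gave 2 UMIs there (counting interval of the ratio 123 to 3802), and *Emid1* was higher by 7.76 ± 0.31. With *Pmp2*, *Gldn* and *Cldn19* these were the 10 largest. The lower end held satellite glial genes. Among them the retinoid binding protein gene *Rlbp1* gave 1 UMI in the Schwann gate, too few for an exact fold. The others were *Apoe* (-5.08 ± 0.65), the water channel gene *Aqp4* (-4.95 ± 0.69), *Bcan* (-4.93), *Fam129a* (-4.76), *E130114P18Rik* (-4.69), *Slc4a4* (-4.65), *Cspg5* (-4.55), *Cdo1* (-4.50) and the adhesion gene *Chl1* (-4.46). *Apoe* is one of the transcripts that differed between the libraries numbered 1 and 2 in the Schwann gate.

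Stress and cytokine response genes also differed from satellite glial cells. Of 18 tested immediate early and stress genes 13 were higher and none lower, beside 21.3% higher and 19.2% lower over all tested genes. *Fosb* stood at 3.23, *Btg2* at 1.83, *Fos* at 1.75, *Dusp1* at 1.75, *Atf3* at 1.71 and *Junb* at 1.58 on the log2 scale. The list was not particular to these cells. It summed to 21807, 14196, 15704 and 15297 CPM in control 1, control 2, injury 1 and injury 2. In macrophages it summed to 33848, 14455, 17967 and 10627 CPM, and in satellite glial cells to 5058 to 12975 CPM. *Fos* stood at 8478, 4938, 5770 and 5464 CPM, highest in control 1. Of 11 tested acute phase and interferon genes, *Irf1* was higher (1.47; 420, 48.4, 192 and 33.8 CPM) and 6 were lower. Among the lower ones, *Serpina3n* gave 3 UMIs in all gated cells, too few for an exact fold. The values of *Irf1* were larger in the libraries numbered 1 than in those numbered 2.

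Markers of other cells were not absent from the gate. The 12 satellite glial markers summed to 223, 1272, 219 and 2357 CPM, led by *Fabp7*, against 14944 to 19291 CPM in the satellite glial gate. Without the 7 cells of at least 10 *Fabp7* UMIs, control 2 stood at 101 CPM and injury 2 at 77.8 CPM. Of the 102576 UMIs of the list in that gate, 80032 were of *Fabp7*, which chose its cells, so the gap between the sums follows largely from the gate. The 11 other members were tested and all were lower. The 8 markers of non-myelinating Schwann cells summed to 156, 169, 69.3 and 284 CPM, led by *Sox2*, with *Gfra3* and *L1cam* listed at 0. The 12 macrophage markers summed to 130, 256, 69.3 and 60.8 CPM, led by *Lyz2*, with *Cd163*, *Cx3cr1* and *Fcgr1* at 0, against 14805 to 23190 CPM in the macrophage gate. The 13 neuronal markers summed to 1940, 2351, 2549 and 2918 CPM, led by *Sncg*, with *Rbfox3* and *Scn10a* at 0. The endothelial (67.4 to 551 CPM, led by *Egfl7*), mural (156 to 875 CPM, led by *Tagln*) and blood lists (58.7 to 236 CPM, led by *S100a9*) also gave UMIs in every library, and the mural sum was above the macrophage sum in each. The 2 tested endothelial markers, *Egfl7* and *Cldn5* (2.33 to 2.83), and the 1 tested mural marker, *Tagln* (3.19), were higher than in satellite glial cells. So was *Uchl1* of 2 tested neuronal markers, and none of 3 tested blood markers was called. The part of RNA from such cells was not tested.

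The fibroblast list was the highest of the other cell types. Its 11 markers summed to 3248, 6273, 6057 and 11029 CPM, led by *Apod*, against 1850 to 3137 CPM in satellite glial cells. Of its 8 tested genes 4 were higher than in satellite glial cells, beside 21.3% of all tested genes. *Mfap5*, a microfibril protein, led at 773, 1446, 1360 and 1810 CPM against 3.4 to 35.5 CPM (6.29 ± 0.36). The others were *Col1a1* (2.16), *Apod* (2.16) and *Col1a2* (1.29). *Mfap5* and *Dcn* were each highest in injury 2 and next in control 2, while in injury 1 *Dcn* stood at 37.3 CPM and *Mfap5* at 1360 CPM. The part of RNA from fibroblasts in these values was not tested.

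A second comparison was made with 55 glial cells positive for *Scn7a*, a sodium channel gene of non-myelinating Schwann cells (15, 10, 24 and 6 cells in control 1, control 2, injury 1 and injury 2). Injury 2, with under 10 such cells, did not enter the test. Of 2481 genes, 193 (7.78%) were higher in myelinating Schwann cells and 196 (7.9%) lower. None of these calls was left without injury 1 (smallest adjusted p = 0.0667 by edgeR, with 2 libraries left). The 10 largest higher genes gave no UMI in the *Scn7a* glia of the 3 libraries, which sets lower bounds. *Fam178b* was at least 57.3-fold higher, *Cldn19* at least 35.3-fold, the phosphatase gene *Dusp15* at least 26.1-fold, *Slc36a2* at least 15-fold, *Pmp2* at least 13.9-fold, *Gjb1* at least 13.8-fold, the potassium channel gene *Kcnk1* at least 12.3-fold, *H2-DMb1* at least 10.9-fold, *Fa2h* at least 10.6-fold and *Drp2* at least 10.3-fold. *H2-DMb1* encodes a chaperone of antigen presentation and stood at 244, 324, 229 and 257 CPM, nearly level over the libraries, and at 2.91 to 7.01 CPM in satellite glial cells.

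At the other end stood *Gfra3*, the artemin receptor, and *Nrn1*, with no UMI in any gated Schwann cell, and they were at least 44.8-fold and at least 40.0-fold lower than in the *Scn7a* glia. *Chl1* (-6.97), the ectonucleotidase gene *Entpd2* (-6.39), *Spata13* (-5.69), *Aldh1a1* (-5.29), *Slc43a3* (-5.21), *Csmd1* (-5.19), the plasminogen activator gene *Plat* (-5.04) and *Kcna6* (-4.91) followed. *Pmp22*, at 2221, 616 and 1430 CPM in the *Scn7a* glia of control 1, control 2 and injury 1, was higher in myelinating Schwann cells by 4.42 ± 0.42 and *Mbp* by 4.0 ± 0.39 on the log2 scale. Of the lists, 5 of 7 compact myelin genes and 9 of 17 non-compact genes were higher, and *Ank3* was lower (-1.75), in contrast to its direction against satellite glial cells. Of 8 node genes *Gldn* and *Fxyd3* were higher and *Fxyd1* lower (list median -0.69). Of 10 basal lamina genes none was higher and *Itgb4* was lower (-0.89). Of 6 regulators *Pou3f1* was higher and *Zeb2* lower. Over all tested genes 7.78% were higher and 7.9% lower, so the node, basal lamina and regulator counts are a description of single genes. *Kcna1*, *Itga6*, *Hspg2* and *Egr2*, which were higher than in satellite glial cells, were not among the higher genes here.

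In the cholesterol list, 3 of 10 tested genes given here were higher than in the *Scn7a* glia, namely *Hmgcs1* (2.76 ± 0.39), *Fdft1* (2.15 ± 0.64) and *Idi1* (1.96 ± 0.54), and the median log2 fold was 1.52, beside 0.01 for all tested genes. Of 13 tested fatty acid and sphingolipid genes 7 were higher, and *Aspa* was lower. Beside these list counts, 7.78% of all tested genes were higher and 7.9% lower. Among the higher ones, *Ugt8a* gave 1 UMI in the *Scn7a* glia of injury 1 and none in control 1 and control 2, too few for an exact fold. The immediate early and stress list had 1 higher gene, *Fosb*, and 5 lower (*Hspa1a*, *Atf3*, *Hspb1*, *Klf6* and *Ier2*) of 19, and the acute phase and interferon list 7 lower of 12. Of 8 tested fibroblast markers 5 were lower as well (*Col3a1*, *Dcn*, *Lum*, *Gsn* and *Col1a1*), *Mfap5* was higher (2.87 ± 0.49) and 2 were not called. *Dcn* stood at 79.3, 4929 and 3116 CPM in the *Scn7a* glia of control 1, control 2 and injury 1, and in control 2 the endothelial gene *Cldn5* stood at 855 CPM and the mural genes *Rgs5* and *Acta2* at 775 and 755 CPM. The part of RNA from such cells in these differences was not tested. The comparisons share the myelinating Schwann libraries, so their values are set side by side without a test between them.

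The question posed by the injury groups was whether these cells in the ganglion changed 3 days after the nerve was crushed. By edgeR, none of 2862 tested genes was called in either direction (0%, smallest adjusted p = 0.9996, with no block for the replicate number), 58 genes (2.03%) had an unadjusted p under 0.05, and DESeq2 called none (15 genes with an unadjusted p under 0.05). In 417 genes (14.6%) both injury libraries lay above both control libraries and in 330 (11.5%) below. With the replicate number as a block, 7 genes were called higher and 13 lower. The reporting summary of the paper speaks of 2 biological replicates and of batches that each pooled several mice. It does not say which libraries made up a batch, and no source states that equal numbers mark a shared one. The median width of the 95% confidence interval of a log2 fold was 1.88 at n = 2. The p-values measure only the spread between these libraries, which hold pools of mice and also differed in depth.

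The most abundant myelin genes given here had intervals narrower than the median, and each included 0. The log2 fold of injury over control was -0.04 for *Mbp* (95% interval -0.57 to 0.50) and 0.17 for *Pmp22* (-0.39 to 0.72). For *Pmp2* the interval was too wide to read (0.20, -2.03 to 2.43), and its sign changed without control 1 (-0.69). Of the regulators, *Egr2* was at -0.19 (-1.07 to 0.70) and *Pou3f1* at -0.77 (-1.69 to 0.16), with injury 1 as the low library for *Pou3f1*. No gene of the compact (7 tested), non-compact (20), node (8) or regulator (10) lists was called, and their median log2 folds were 0.17, -0.12, -0.14 and -0.36, beside -0.01 for all tested genes.

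No gene of the repair Schwann cell list was called after injury. Of its 30 genes, 12 were at 0 UMIs in every gated cell, among them *Gdnf*, *Artn*, *Bdnf*, *Shh*, *Olig1* and *Runx2*. In satellite glial cells 7 of the 30 were at 0 and in macrophages 7, with *Gdnf*, *Shh* and *Olig1* at 0 in both. The share of all genes at 0 is not given here, so these counts are a description. The 6 genes that could be tested all had a negative log2 fold, with a median of -0.45 beside -0.01 for all tested genes. *Jun*, the driver of the repair state, stood at 3118 and 1098 CPM in control and at 1418 and 1351 CPM in injury (-0.60, -1.66 to 0.46), the highest value being that of control 1. Against satellite glial cells, *Atf3* (1.71) and *Egr1* (0.83) of the list were higher and *Ncam1* (-3.0), *Notch1* (-2.68), *Id2* (-0.99) and *Sox2* (-0.77) lower, while *Jun* was not called (0.32 ± 0.15, adjusted p = 0.098). Of 15 cell cycle genes 8 were at 0, *Mki67*, *Top2a* and *Cdk1* included, and the list gave 57 UMIs in all.

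The genes with the smallest p did not pass the test either, and 9 are given here. *Tob1*, an antiproliferative gene, stood at 374 and 179 CPM in control and 58.7 and 60.8 CPM in injury (log2 fold -2.20 ± 0.44, SE). The class I gene *H2-D1* stood at 804 and 522 CPM and at 208 and 270 CPM (-1.48 ± 0.33). *Pdlim4* stood at 15.6 and 33.9 CPM in control and 90.7 and 182 CPM in injury (2.38 ± 0.58), and *Fgl2* at 20.8 and 72.6 CPM against 203 and 155 CPM (1.88 ± 0.53). In each of these 4 genes the groups did not overlap, as in 14.6% (injury higher) and 11.5% (injury lower) of all tested genes. The macrophage gene *Lyz2* stood at 104 and 203 CPM against 37.3 and 40.5 CPM (-2.0 ± 0.49), but its log2 fold was 0.035 with a gate sum of at least 2.

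The remaining 4 genes were of the MHC class II pathway, and 2 cells carried them. *Cd74* stood at 176 and 2520 CPM in control and 32.0 and 20.3 CPM in injury (-5.69 ± 1.33), and *H2-Aa* (-5.20), *H2-Eb1* (-5.01) and *H2-Ab1* (-4.03) were likewise highest in control 2, with control 1 next. Of 1068 class II UMIs in the gated cells of control 2, 1058 were found in 2 cells, and without these cells none of the 4 genes passed the filter on low counts.

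**Figure D4:**
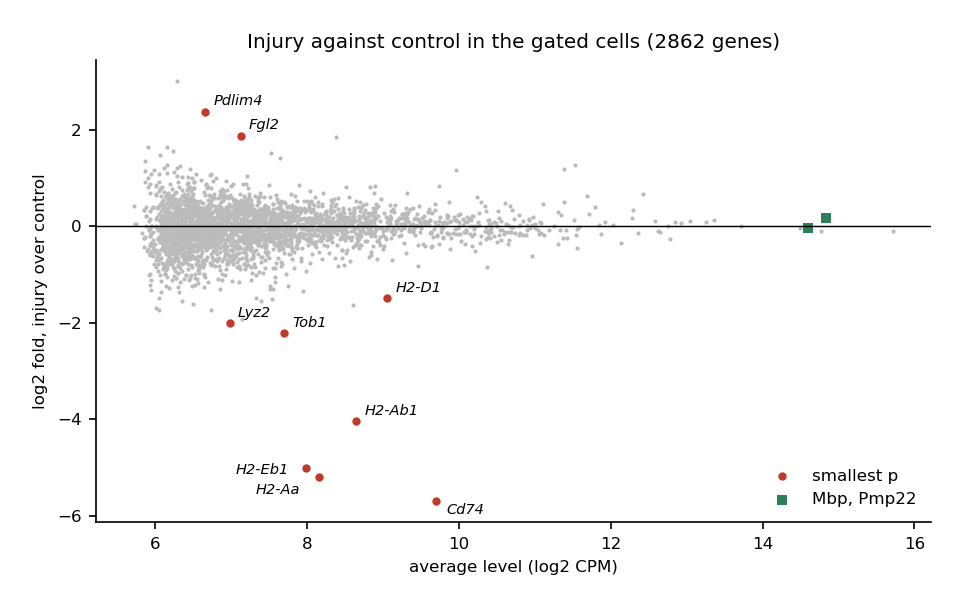
Log2 fold change of injury over control against average log2 CPM for 2862 genes in myelinating Schwann cells, with the 9 named genes of smallest p in red and *Mbp* and *Pmp22* as green squares. No gene was called at an adjusted p of 0.05 without a replicate block, and both myelin genes lie close to 0.

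The count of calls depended on single libraries. Without control 1 there were 2 genes higher after injury and 23 lower, without control 2 there were 23 and 21, without injury 1 there were 5 and 2, and without injury 2 there were 2 and 23. In each of these fits the lone library of a condition is assumed to vary like the other pair. The genes called without injury 2 included *Fabp7*, *Apoe* and *Dcn* as lower, and those called without control 2 included the same 3 genes as higher, which are the transcripts that stood apart in the libraries numbered 2. When the response to injury was compared with that of satellite glial cells (an interaction term), none of 3563 genes was called (0%, edgeR smallest adjusted p = 0.123, for *Srgn*, log2 difference -3.47 ± 0.48), and 92 (2.58%) had an unadjusted p under 0.05. With the replicate number as a block 4 were higher and 12 lower, and without a library 0 to 7 were higher and 0 to 20 lower.

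*Spp1*, the osteopontin gene (chr5:104435118-104441050), set these cells apart from satellite glial cells and was uneven between them. It stood at 866 and 1911 CPM in control and 3439 and 3080 CPM in injury, against at most 46.7 CPM in satellite glial cells (6.72 ± 0.23). The injury libraries lay above the control ones, with a log2 fold of 1.19 (95% interval 0.22 to 2.16) that did not pass the test (edgeR adjusted p = 0.9996). After thinning to 1000 UMIs, 20.7%, 49.8%, 35.9% and 60% of the gated cells kept a *Spp1* UMI in control 1, control 2, injury 1 and injury 2, so that the libraries numbered 2 were the highest within each condition, against 2.13% of satellite glial cells and 6.68% of macrophages. *Apod* had the same order of groups, at 1027 and 1940 CPM in control and 3354 and 3971 CPM in injury (1.27, 0.39 to 2.15), and did not pass the test either. That order was found in 14.6% of all tested genes.

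The gated cells varied among themselves along *Pmp2*. At least 2 *Pmp2* UMIs were found in 32 cells (3, 14, 8 and 7 in control 1, control 2, injury 1 and injury 2), and 10 cells held 66.9% of all *Pmp2* UMIs. These 32 cells were deeper, with a median of 5043 UMIs against 2164 in the other 202, so their values are given as CPM and as a description, with no test. *Akr1b3*, an aldose reductase, stood at 832, 652, 494 and 982 CPM in cells with *Pmp2* and at 28.2, 167, 104 and 198 CPM in the others (ratio of summed CPM 6.61). *S100b*, a calcium binding protein of glia, stood at 2689, 3485, 2529 and 3755 CPM against 836, 1778, 1228 and 1144 CPM (2.71). *Spp1* stood at 4353, 3366, 6832 and 5200 CPM against 559, 1079, 2677 and 1935 CPM (3.11), and *Pmp22* at 47695, 33337, 40176 and 32334 CPM against 20173, 20573, 24403 and 24130 CPM (1.61). All 4 genes were higher in cells with *Pmp2* in every library.

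Other sheath genes differed less or varied with the depth of the cells. Over all gated cells the ratio was 1.26 for *Mbp* (higher in 2 of 4 libraries), 1.14 for *Prx* (4 of 4), 1.11 for *Cldn19* (3 of 4), 0.939 for *Ncmap* (3 of 4) and 0.788 for *Mag* (2 of 4), of which *Prx*, *Ncmap* and *Mag* are gate genes. *Them5* (6.62), *Prkca* (3.31) and *Lims2* (3.24), which were taken from the genes of largest ratio, were higher in all 4 libraries. Of the lower ones, *Dcn* stood at 128, 66.5, 29.1 and 77 CPM in cells with *Pmp2* against 124, 1398, 39.2 and 3599 CPM in the others, so that its ratio (0.0677) came from control 2 and injury 2. Cells with transcripts of other types lay on both sides of the split. *Cd74* stood at 26.6 CPM in cells with *Pmp2* and 3944 CPM in the others of control 2, where the 2 class II cells lie. *Apoe* stood at 404 against 16652 CPM in injury 2 but at 7835 against 5799 CPM in control 2, and *Fabp7* at 19.3 against 2777 CPM and at 1636 against 631 CPM. When only cells of at least 3000 UMIs were compared, 29 cells with a median of 5232 UMIs stood against 64 with a median of 4328.5. *Akr1b3* (4.25), *S100b* (2.21) and *Pmp22* (1.51) were again higher in every library, and so were *Cldn19* (1.54), *Prx* (1.44) and *Mag* (1.29). *Mbp* (1.31) was higher in 2 libraries and *Ncmap* (1.10) in 3. For *Spp1* the ratio was 2.11, and injury 1 had the opposite order (6185 against 9491 CPM).

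**Figure D5:**
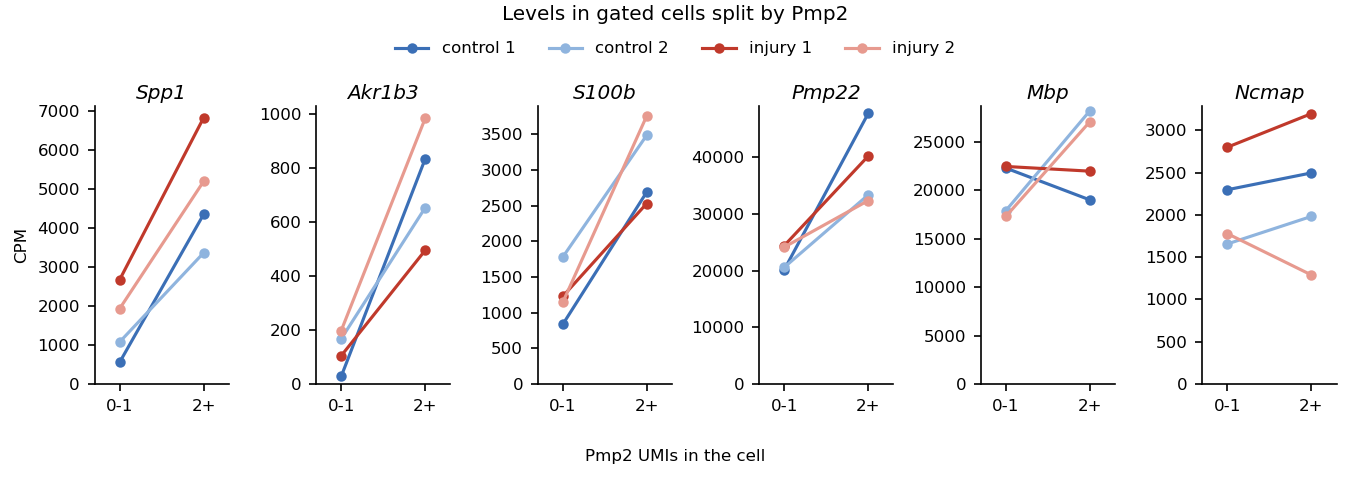
CPM of *Spp1*, *Akr1b3*, *S100b*, *Pmp22*, *Mbp* and *Ncmap* in gated cells with 0 or 1 *Pmp2* UMI and with 2 or more, 1 line per library. The lines of *Akr1b3*, *S100b*, *Spp1* and *Pmp22* rise in all 4 libraries.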

How the data were processed

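The deposited values were raw UMI counts per gene and barcode, made by the authors with Cell Ranger on mm10 and not normalized. Their own filters and Partek analysis were applied after this step, so the limits on UMIs, genes and mitochondrial share were applied here. The members and gene lists were chosen with earlier results of these data known. Counts were summed per library and gate. Genes passing filterByExpr were tested with edgeR 4.0.16 (quasi-likelihood test, TMM, Benjamini-Hochberg adjustment over all genes tested), with DESeq2 1.42.0 as an alternative. CPM was computed per library and gate. Comparisons between gates had the library as a block and those between conditions had none. The steps were also run on simulated counts with large changes only, and the outcome is not given here. Cells were thinned to 1000 UMIs in 20 draws. A fold against a group at 0 was set against 3 UMIs over the group. Of the largest higher folds, those against 1 to 3 UMIs have an exact binomial 95% interval, for counting error only. Where a fold is given for a lower gene of few UMIs in the Schwann gate, it is a fitted value without such an interval. Of the marker gates, satellite glial cells had at least 10 *Fabp7* UMIs, *Scn7a* glia at least 3 *Scn7a* UMIs with at least 2 UMIs of pan-glial genes, and macrophages at least 10 C1q UMIs. Scrublet calls were kept in and left out in an alternative. Since Scrublet marked few barcodes, doublets among the gated cells were not resolved.

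Genes were named by a rule: members of the compact and non-compact myelin lists, the 10 largest folds in each direction between gates (adjusted p under 0.05 and average log2 CPM over 4), the 10 smallest p after injury where fewer than 5 genes passed, up to 6 called members of each other list, the fatty acid binding genes and the 10 most abundant genes. Some genes that the rule would name are not reported here, and they were left out of the list counts and of the figures that name genes. *Apod*, *Spp1*, *Mfap5*, *Dcn* and the genes of the *Pmp2* comparison were named after their values were seen. Promoters came from RefSeq (GRCm38.p6) and gene coordinates from the matching GRCm38 annotation.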

Additional observations from a re-analysis of the deposited data

How the results depend on the processing

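Injury calls, 0 genes higher and 0 lower, ranged from 2 to 23 higher and from 2 to 23 lower when a library was left out, and were 7 higher and 13 lower with a replicate block. The replicate numbers pair the libraries neither by the labels nor by enough pairs (correlation of deviations 0.385, 2 pairs). The interaction gave 0 to 7 higher and 0 to 20 lower without a library, 4 and 12 with a replicate block, 3 and 12 with no filter on low counts and 1 lower (*Cd74*) among cells of at least 3500 UMIs. Against satellite glial cells, 311 genes were higher and 306 lower after thinning and 1221 lower with no filter. Against the *Scn7a* glia, 0 to 245 were higher and 0 to 253 lower without a library, and 483 higher with no filter. With no thinning the *Pmp2* share was 22.2% and the *Fabp7* share 15.4%. The causes were not tested. The log2 fold after injury changed sign for *Lyz2* at a gate of 2 (0.035), *Mbp* after thinning (0.093) and *Pmp2* at a gate of 6 (-0.011) and after thinning (-0.64), and without a library it ranged from -0.068 to 0.024 for *Mbp* and -0.69 to 2.96 for *Pmp2*. Uncalled folds against satellite glial cells changed sign for *Sgcb* at a gate of 6 (0.024), without cells of 10 *Fabp7* UMIs or any C1q UMI (0.034) and with the satellite gate at 5 (0.048) or 20 *Fabp7* UMIs (0.088; -0.14 to 0.033 without a library). *Gjc3* did so with no filter (-0.0034), at a gate of 6 (-0.095) and at 3500 UMIs (-0.41; -0.031 to 0.29 without a library), and *Emp2* with no filter (-0.12), at a gate of 2 (-0.038), without those cells (-0.029), after thinning (-0.22) and at 3500 UMIs (-0.16; -0.035 to 0.061 without a library). The difference in share kept its sign under 10 alternatives, and ranged from -3.98 to -0.500 percentage points when a library was left out. The 3500 UMI limit and leaving out the 2 class II cells were chosen after seeing the data. At 25 to 88 cells per library, transcripts of few UMIs could not be compared.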
